A study of Mus musculus with 14 samples.

Results

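The genes described here are the zinc finger genes whose mouse symbols run from Zfp600 to Zfp999. They were taken by symbol alone, as every name made of Zfp and 3 digits from Zfp600 to Zfp999, which gave 174 of the 52459 gene symbols quantified. The results below concern the 136 of them with a mean estimated count of at least 50 over the 14 libraries, and all 136 also passed the filter on low counts. Of the other 38 members, 14 passed that filter and 24 did not, 11 had a mean under 1 count, and 2 had no count in any library. The member just inside the minimum was Zfp947, with a mean of 50.5 counts, and the one just outside was Zfp976, with 49.5.

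C2H2 zinc finger proteins bind DNA through small modules held together by a zinc ion, and arrays of these modules read long sequence stretches. In the KRAB type, an N-terminal KRAB box recruits the corepressor TRIM28, which brings SETDB1 and HP1 proteins to deposit repressive chromatin, often at retrotransposons. Their genes lie in clusters that grew by duplication, and their mRNAs are known to turn over quickly. Members without a KRAB box include corepressors, adaptors and widely expressed DNA-binding proteins.

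Cortical neurons were taken from mouse embryos at E16.5, grown as primary cultures and silenced on day 5 in vitro with 1 µM TTX, a sodium channel blocker, and 100 µM APV, an NMDA receptor blocker. On day 6, cultures received 50 mM KCl for 1 h, which depolarises neurons, or stayed at basal KCl. The series compares Brg1-SA (S1382A) and Brg1-SE (S1382E) knock-in neurons with wild-type littermates, BRG1 being a chromatin remodelling ATPase of BAF complexes. The SA line gave 2 mutant and 2 wild-type replicates, the SE line gave 2 mutant replicates and 1 of wild type, counted by replicate number, each with 1 basal and 1 KCl library. The labels do not say whether same-numbered basal and KCl libraries came from 1 culture. Every group, wild type included, had the same silencing. The labels name neither the embryos nor the zygosity, so p-values measure the spread between these libraries, which may be technical.

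Libraries held 22625916 to 23096206 estimated counts. Fos, an immediate early gene, was higher in every KCl library than in any basal one and ran from 5.91 to 11.2 CPM (counts divided by the TMM-scaled library total in units of 1e6) at basal and from 413 to 1462 after KCl. The lines differed in RNA of cell type markers. Summed levels of the 6 astrocyte markers were 1775 to 2455 CPM at basal in the SA line and 386 to 414 in the SE line, those of the 5 progenitor markers were 672 to 2318 against 233 to 273, and those of the 6 glutamatergic markers 466 to 839 against 1919 to 1997. In bulk RNA, fewer cells of a type and less RNA per cell cannot be told apart. The KCl comparisons below were made within each line. There, astrocyte markers after KCl overlapped basal in both lines (1626 to 2474 CPM in the SA line, 396 to 484 in the SE line), but the 6 GABAergic markers were higher after KCl, at 524 to 613 against 432 to 507 CPM in the SA line and 205 to 240 against 155 to 168 in the SE line. The 7 general neuron markers were lower after KCl in the SE line, at 5565 to 5903 against 6300 to 6532 CPM, and overlapped in the SA line; the part of these shifts in the results was not tested.

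Most members are of the KRAB type. A KRAB box was found by pattern in a translated GENCODE transcript of 88 of the 136, and not in 48, 2 of which are pseudogenes. The 88 are the KRAB members below, and the 48 may include genes whose box the pattern missed. The median number of C2H2 fingers was 12 in the KRAB members and 7 in the others, and Zfp619 had the most, 33. KRAB members were the less abundant, with a median level of 5.5 TPM (a level scaled per transcript length) against 12 TPM. The 5 most abundant members all lacked the pattern. Zfp706, a small protein with 1 finger, had 89.7 to 109 TPM over the 14 libraries, with a median of 101. The median was 61.7 TPM for Zfp637, 65.4 for Zfp651, 44.6 for Zfp638 and 38.3 for Zfp703.

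A cluster on chromosome 13 held several of the largest falls after KCl. It is a run of Zfp712, Zfp708, Zfp759, Zfp748 and Zfp738, all KRAB genes and each within 500000 bases of the next member, between positions 67038596 and 67687071 (GRCm38), and the first 4 of these fell in both lines. Their promoters are shown because the first 3 share a run of 14 bases just before the transcription start, given in capitals below. Each stretch is 120 bases, 5′ to 3′ on the gene's strand, and ends at the base before a RefSeq start (GRCm38.p6). Zfp708 has another RefSeq start, without the run in its window.

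Zfp712, chr13:67061171-67061290, minus strand: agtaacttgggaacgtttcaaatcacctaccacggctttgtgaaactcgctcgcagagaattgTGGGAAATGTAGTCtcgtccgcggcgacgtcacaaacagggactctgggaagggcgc
Zfp708, chr13:67081546-67081665, minus strand: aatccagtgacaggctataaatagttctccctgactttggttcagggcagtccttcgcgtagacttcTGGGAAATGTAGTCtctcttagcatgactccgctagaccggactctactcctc
Zfp759, chr13:67128108-67128227, plus strand: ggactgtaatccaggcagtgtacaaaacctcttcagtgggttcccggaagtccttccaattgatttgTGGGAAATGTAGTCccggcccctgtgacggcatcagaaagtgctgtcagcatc

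The run ended 43 bases before the start in Zfp712 and 39 bases before it in Zfp708 and Zfp759. Zfp748 and Zfp738 held it with 1 substitution, A7G, counted from the run's first base. Of these stretches 30 bases are given, since they reach into annotated exons.

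Zfp748, chr13:67553158-67553187, minus strand: cagacttgTGGGAAGTGTAGTCttccgttg
Zfp738, chr13:67683548-67683577, minus strand: ctgacttgTGGGAAGTGTAGTCccgtccct

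The run TGGGAAATGTAGTC was taken from these promoters after their changes were known, so its presence in them supports nothing. Zfp712's window overlaps an antisense exon. It was searched on both strands in the RefSeq windows of 300 bases (250 before a start to 50 after it), which matched 117 of the 136 members. With at most 1 mismatch it was found in 0.918% of the 27025 genes with a window. By the same count it was in 10 of 79 KRAB members (12.7%), in 0 of 38 members without KRAB, and in 20 of 68 KRAB genes with Zfp numbers outside the range (29.4%). Among KRAB genes outside the range, which were not used to pick it, it was in 13 of 35 that fell after KCl in a line (37.1%) and in 7 of 33 that did not (21.2%). The cAMP response element TGACGTCA was in 0 of the 29 matched members that fell and in 2.03% of all genes. Its shorter form TGACG, which every TGACGTCA contains, was in 13 of the 29 (44.8%) and in 23% of all genes. TGACG was also in 17 of 54 KRAB members that did not fall (31.5%) and in 15 of 38 members without KRAB (39.5%). Among KRAB genes outside the range, it was in 8 of 35 that fell (22.9%) and in 12 of 33 that did not (36.4%). A match is a description of letters, not of a bound site.

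After KCl in the SA line, 25 of the 136 members fell and 0 rose (edgeR's quasi-likelihood test, Benjamini-Hochberg adjusted p under 0.05 over 17732 genes). Over all genes tested, 0.649% fell and 1.38% rose. The members' median log2 change was -0.27, against 0.00 over all genes, and 113 of 136 lay below 0. At an unadjusted p under 0.05, 61 members differed (44.9%), as did 8.05% of all genes. The 4 KCl libraries were all below the 4 basal libraries for 41 members (30.1%), as for 2.47% of all genes. Single libraries moved the count: it was 7 without SA_KCl replicate 2, 13 without SA_basal replicate 1 or WT_SA_KCl replicate 2, 14 without WT_SA_basal replicate 1, 15 without SA_KCl replicate 1, and 16 without either SE basal library, while the median stayed between -0.31 and -0.21.

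After KCl in the SE line, which shares no library with the SA line, 28 members fell (20.6%) and 2 rose, Zfp703 and Zfp948. Over all genes, 0.998% fell and 1.82% rose. The median log2 change of the members was -0.30, against 0.01 over all genes, and 104 of 136 lay below 0. All 3 KCl libraries were below all 3 basal libraries for 78 members (57.4%), as for 13.0% of all genes. Without 1 SE-line library the count that fell was between 11 (SE_KCl replicate 1) and 16 (either wild-type library): it was 12 without SE_basal replicate 1 or SE_KCl replicate 2 and 13 without SE_basal replicate 2. A fit of that line alone gave 57, and one of the SA line alone gave 7.

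The falls met in the same genes. In both lines 20 members fell, which is 80% of the SA-line falls and 71.4% of the SE-line falls. Over all genes 79 fell in both, of 115 and 177. Both lines were tested in 1 fit of all 14 libraries, with 1 estimate of spread per gene. The calls of the 2 lines are therefore not independent. The 5 members called in the SA line alone, and the 8 called in the SE line alone, all had a log2 change below 0 in the other line. Across the 136 members the changes in the 2 lines had a Spearman correlation of 0.81 and a Pearson correlation of 0.82, given as a description, since members share libraries and depth. The fall was larger in the SE line for 17 of the 20.

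**Figure D1:**
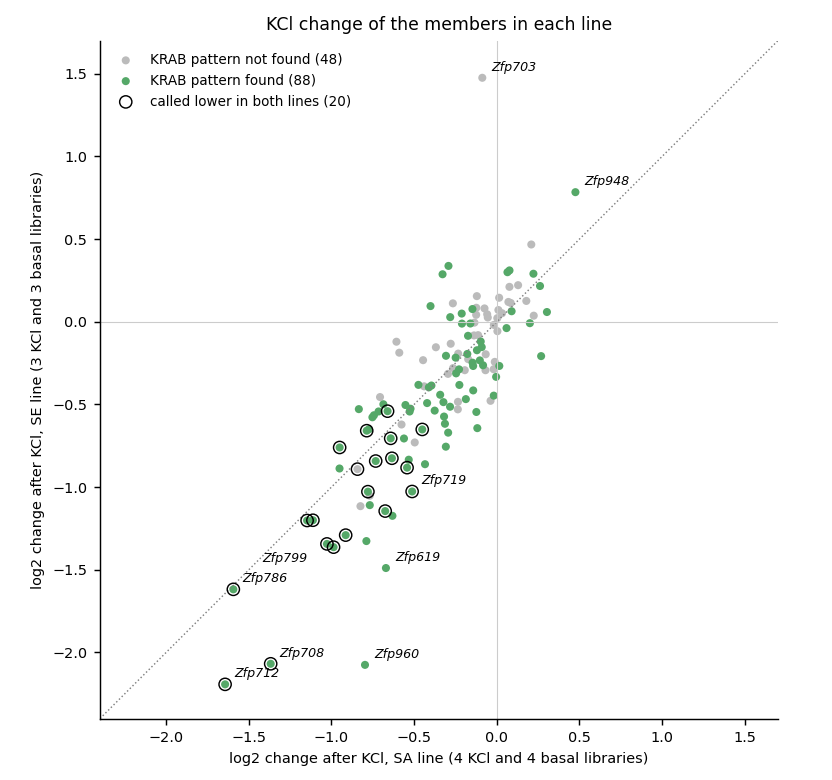
Log2 change after KCl in the SA line (x axis, 4 KCl and 4 basal libraries) and in the SE line (y axis, 3 and 3) for the 136 members, each point a gene, green where a KRAB box was found and grey where it was not; rings mark the 20 members that fell in both lines and the dotted line marks equal changes. Most points lie below 0 on both axes (99 of 136), and Zfp703 lies at 1.48 in the SE line and -0.09 in the SA line.

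Zfp712 had the largest fall in each line. It encodes a KRAB protein with 20 fingers, of no function given here. In the SA line its basal libraries read 5.44 and 4.41 CPM in SA and 5.61 and 5.06 CPM in wild type. After KCl they read 2.13 and 1.12 CPM in SA and 1.75 and 1.55 CPM in wild type. Every KCl library was thus under 1 in 2 of the lowest basal one, and mutant and wild type overlapped. The log2 change was -1.64 (SE 0.20, adjusted p 0.00183), from 5.13 ± 0.53 to 1.64 ± 0.42 CPM (SD, n = 4; edgeR). SE-line libraries went from 6.77 and 6.47 CPM in SE and 7.49 in wild type to 1.52, 1.39 and 1.60, a log2 change of -2.19 (SE 0.23, adjusted p 0.00065; edgeR).

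Zfp708, its neighbour, fell alike, by 1.37 on the log2 scale in the SA line (SE 0.23, adjusted p 0.0137) and by 2.07 in the SE line (SE 0.28, adjusted p 0.00296; edgeR). Basal CPM were 3.44, 4.49, 6.73 and 3.86 in the SA line and 5.32, 4.64 and 6.35 in the SE line. After KCl they were 1.73, 1.42, 1.67 and 2.32 in the SA line, and 0.90, 1.3 and 1.74 in the SE line. The groups did not overlap in either line. Of the 31-base words of Zfp708 transcripts, 95.6% also occur in another annotated gene, so the share of its reads that kallisto gave it is uncertain. It overlaps Rslcan18 and Gm28557 on its strand. The next neighbour, Zfp759, shares 4.46% of its words, and fell by 1.15 (SE 0.15) in the SA line and 1.2 (SE 0.17) in the SE line on the log2 scale. Its basal libraries spanned 5.35 to 8.95 CPM in the SA line and 6.56 to 7.76 in the SE line, above all KCl libraries, at 2.80 to 3.52 and 2.92 to 3.30. Further along the cluster, Zfp748 fell by 0.68 and 1.15, and Zfp738, at -0.25 and -0.31, was not called in either line. Zfp748 overlaps the antisense gene 9430065F17Rik, whose reads may not have been separated, as strand-specific counting is not stated.

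Outside that cluster, Zfp786 on chromosome 6 had the lowest p of the SA line, and 0.48% of its words are shared. SA-line libraries went from 8 and 7.02 CPM in SA and 8.24 and 7.97 in wild type to 2.58 and 2.07 in SA and 3.62 and 2.10 in wild type. SE-line libraries went from 11.3, 10.4 and 10.5 CPM to 3.80, 3.39 and 3.30. The log2 changes were nearly equal, -1.59 (SE 0.18) and -1.62 (SE 0.20). Zfp799 on chromosome 17 read 15.8 to 21.5 CPM at basal and 8.02 to 11.7 after KCl in the SA line, and 17.9 to 21.4 against 7.45 to 8.03 in the SE line. Its log2 changes were -1.03 (SE 0.13) and -1.34 (SE 0.15).

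Zfp719, on chromosome 7, gave the lowest p of the SE line, where it went from 21.9 ± 0.81 to 10.7 ± 0.89 CPM (SD, n = 3), a log2 change of -1.03 (SE 0.11). In the SA line it read 18.0 to 23.6 CPM at basal and 12.1 to 18.2 after KCl, ranges that overlap narrowly, with a change of -0.51 (SE 0.09, adjusted p 0.0188; edgeR). The remaining members that fell in both lines were Zfp647, Zfp661, Zfp689, Zfp709, Zfp715, Zfp747, Zfp763, Zfp791, Zfp839, Zfp866, Zfp870, Zfp949 and Zfp952, with log2 changes of -0.45 (Zfp715) to -1.11 (Zfp791) in the SA line and -0.54 (Zfp661) to -1.36 (Zfp747) in the SE line. The 12 largest falls of a line also took in Zfp930 (-0.95) and Zfp810 (-0.83) in the SA line, and Zfp960 (-2.08), Zfp619 (-1.49) and Zfp937 (-1.17) in the SE line. These were not called in the other line, where they stood at -0.89, -0.53, -0.80, -0.67 and -0.63. Zfp960 shares 89.2%, Zfp747 52.1% and Zfp937 45.3% of their words with other genes.

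**Figure D2:**
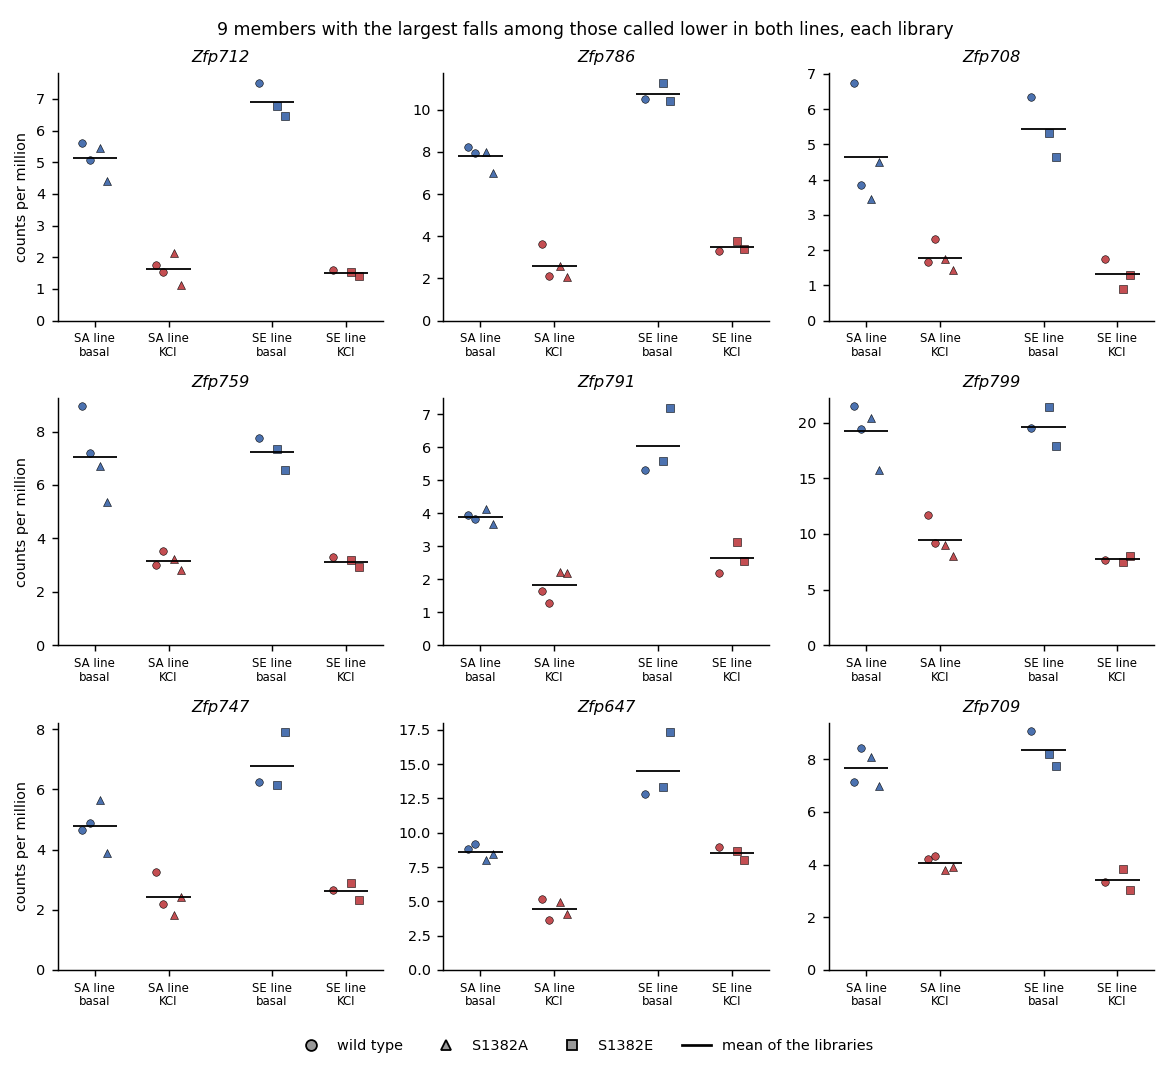
CPM (y axis, from 0) in each of the 14 libraries for the 9 members with the largest SA-line falls among those that fell in both lines; blue is basal, red is KCl, the symbol gives the genotype and the bar the mean of the libraries. In every panel the KCl libraries of a line lie under its basal libraries.

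By calls, the falls were concentrated in members in which the KRAB pattern was found, a difference described here by counts and not tested. In the SA line 23 of 88 KRAB members fell (median log2 change -0.34) and 2 of 48 others (median -0.12). In the SE line 25 of 88 KRAB members fell (median -0.50) and 3 of 48 others (median -0.10). By libraries the SA-line split was small: all KCl libraries were below all basal ones for 28 KRAB members (31.8%) and 13 others (27.1%). In the SE line this held for 60 KRAB members (68.2%) and 18 others (37.5%). Over all genes the shares were 2.47% and 13.0%. The pattern was widened after it was seen which members it missed, which limits these counts. Of the 33 members that fell in either line, the pattern found the box in 29. The 4 in which it was not found, named after their values were seen, were Zfp839, Zfp956, Zfp691 and Zfp773. Zfp839 had no finger by the pattern used, and was the one member without the KRAB pattern to fall in both lines (-0.84 and -0.89).

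The same split in calls held among Zfp genes numbered outside the range. Of 82 with the KRAB pattern, 22 fell in the SA line and 35 in the SE line, with medians of -0.50 and -0.62. Of 92 without, 3 and 6 fell, with medians of -0.08 and -0.05. A list of 29 genes, chosen as cofactors of KRAB proteins, had 0 that fell or rose in either line (edgeR). Over all genes 0.649% and 0.998% fell and 1.38% and 1.82% rose, so 0 of 29 is near the general share. In the SE line all KCl libraries were below basal for 7 cofactors (24.1%, against 13.0% of all genes) and above it for 5. In the SA line they were below basal for 1 (3.45%, against 2.47%) and above it for 0. With edgeR, 1 had an unadjusted p under 0.05 in each line. DESeq2 and limma also called 0, and the medians were 0.00 and -0.08. The list includes Zfp57, which is also counted among the Zfp genes numbered outside the range. Trim28, the KRAB corepressor, changed by 0.03 (SE 0.11) and 0.22 (SE 0.13), and Setdb1, the H3K9 methyltransferase it brings, by -0.09 (SE 0.07) and -0.11 (SE 0.08).

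**Figure D3:**
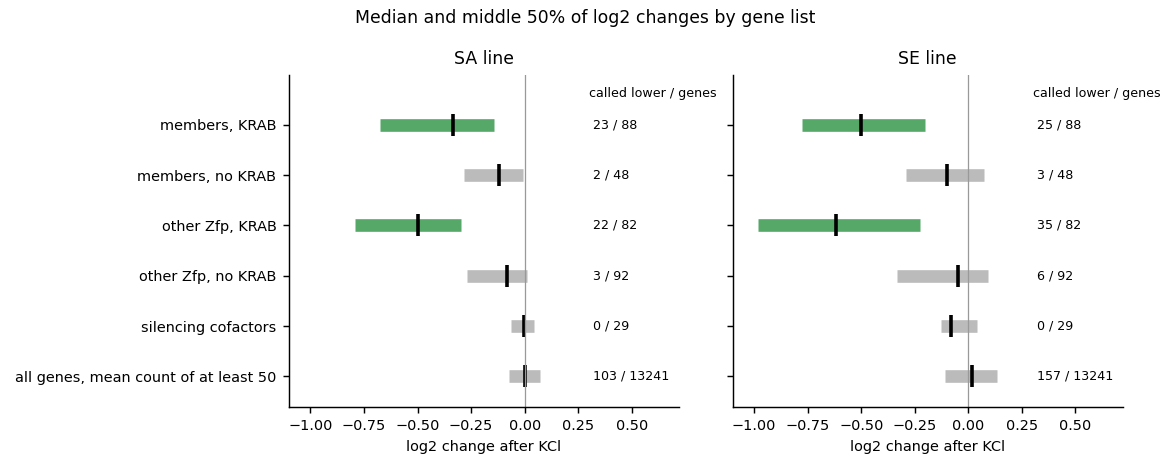
Log2 change after KCl (x axis) in the SA line (left) and the SE line (right) for lists of genes; bars span the middle 50% of genes, the tick is the median, green marks KRAB genes, and the numbers give genes that fell over genes in the list. KRAB lists are shifted to medians of -0.34 to -0.62, while the other lists have medians of -0.12 to 0.02.

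Abundance moved with the change as well. Across the 136 members, the Spearman correlation of the log2 change with the log2 mean TPM was 0.51 in each line, and 0.40 and 0.38 within the 88 KRAB members. With the mean estimated count it was 0.41 and 0.42, and only 0.15 in each line within KRAB members. Both means include the KCl libraries, so a fall itself lowers them. Of the 34 least abundant members (up to 3.98 TPM) 14 fell in a line, and of the 34 most abundant (over 11.9 TPM) 1 did, Zfp866. These sets held 27 and 9 KRAB members. The finger count correlated at -0.36 and -0.39, and at -0.27 and -0.36 within KRAB members. The length of the 3′ UTR (-0.09 and -0.12), ATTTA words per 1000 bases of it (-0.06 and -0.22) and the share of words common to other genes (-0.15 and -0.16) had smaller coefficients. Within KRAB members these were -0.17 and -0.22, -0.12 and -0.11, and 0.12 and 0.03. Protein length (-0.23 and -0.31) and transcript length (-0.25 and -0.30) came near the finger count within KRAB members. Across all members they stood at -0.06 and -0.13, and -0.09 and -0.14. These points share libraries and depth, and their part in the falls was not tested.

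The deposited transcript values show which forms were read. Called members had 47 protein-coding transcripts with at least 10% of their gene's counts; since these genes were chosen for their change, the direction of their transcripts is not a separate result. For Zfp712 1 transcript held all counts, and went from a mean of 123 to 38.5 estimated counts in the SA line and from 152 to 32.3 in the SE line. In Zfp708, the transcript with 80.3% of the counts went from 91.7 to 23.4 and from 113 to 17.3, whereas one with 18.5% went from 19.8 to 18.7 and from 4.6 to 9.38.

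Neighbouring members did not all behave alike. On chromosome 17, a run of 12 KRAB members between 21567008 and 22867134 had 0 that fell in either line, with medians of -0.13 and -0.15, and it holds Zfp948, which rose. A separate run of 6 KRAB members between 32765496 and 33033402 had 5 that fell in a line, with medians of -0.64 and -0.83. They were Zfp799, Zfp870, Zfp952 and Zfp763, called in both, and Zfp871, called in the SE line. In the first run 4.37% of the words of Zfp948, but 22.6% to 36.7% of those of Zfp944, Zfp995, Zfp994 and Zfp947, occur in other genes, against 0.63% to 10.2% in the second. Chromosome 7, with 31 members the richest, had 8 that fell in a line, of a median of -0.32 and -0.39.

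**Figure D4:**
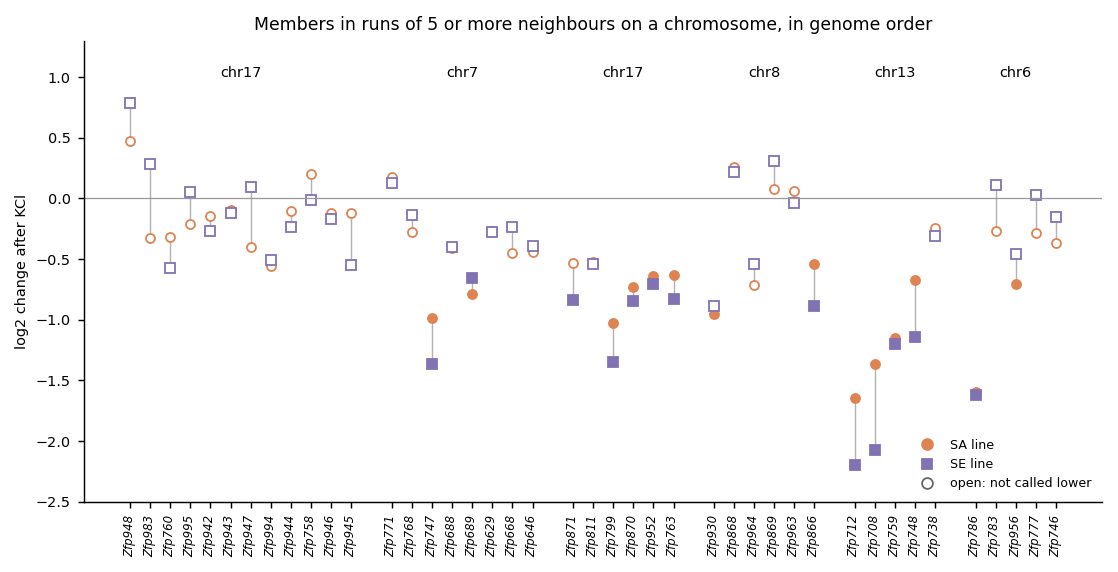
Log2 change after KCl (y axis) of members in runs of at least 5 neighbours no more than 500000 bases apart, in genome order along the x axis; circles are the SA line, squares the SE line, and filled symbols mark falls that passed the test. The chromosome 13 run falls furthest, while the 12-member run of chromosome 17 has no filled symbol.

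Rises were rare. Zfp703 encodes a transcriptional corepressor of the NET family with an atypical zinc finger. In the SE line it went from 50.7 and 56.2 CPM in SE and 53.1 in wild type to 166, 136 and 143, a log2 rise of 1.48 (SE 0.19, adjusted p 0.0022; edgeR). In the SA line, basal libraries read 38.2, 63.1, 53.1 and 50.7 CPM and KCl libraries 38.3, 52.8, 54.2 and 48.0, which overlap throughout (log2 change -0.09, SE 0.16). The lines had like basal levels of it, 51.3 ± 10.3 and 53.3 ± 2.78 CPM (SD, n = 4 and n = 3). The test of the difference in response gave 1.56 (SE 0.25, adjusted p 0.0574; edgeR), just short of the threshold, and DESeq2, limma and the unfiltered fit each called 1 member.

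Zfp948, a KRAB member with 15 fingers, rose by 0.78 in the SE line (SE 0.14, adjusted p 0.0156; edgeR), from 13.1, 12.8 and 15.4 CPM to 21.4, 25.3 and 24.2. Its SA-line libraries read 13.6 to 18.4 CPM at basal and 19.1 to 23.8 after KCl, with no overlap, and a change of 0.48 (SE 0.12, adjusted p 0.104). It was the 1 member of 136 with every SA-line KCl library above basal, which held for 517 of the 17732 genes tested. Without WT_SA_basal replicate 1, 1 member rose in that line, as it did with DESeq2.

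No member's response passed the test of a difference between the lines. That test called 0 of 136 (5 at an unadjusted p under 0.05; DESeq2 1, limma 1), and 0.152% of all genes. Zfp719 had the next lowest p, with a fall larger by 0.51 in the SE line (SE 0.14, adjusted p 0.739; edgeR). For Zfp712 the difference was -0.55 (SE 0.30).

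At basal, the lines themselves differed in 32 members: 21 were higher in the SE line and 11 lower. Over all genes, 21.8% were higher and 26.0% lower, against 15.4% and 8.09% of members. Without SE_basal replicate 2 the count was 19. Among the lower ones, Zfp608 read 46.2 to 70.6 CPM in the SA line and 19.1 to 20.3 in the SE line (log2 difference -1.48, SE 0.12). Zfp618 read 14.4 to 18.3 against 4.83 to 6.63 (-1.59, SE 0.15), and Zfp704, a relative of no KRAB type, read 213 to 335 against 104 to 131 (-1.23, SE 0.15). Zfp687, Zfp664 and Zfp768 followed, at -1.1, -0.74 and -0.70. None of these 6 carried the KRAB pattern.

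Among the higher ones, Zfp637 had 28 ± 2.07 CPM in the SA line (SD, n = 4) and 44.7 ± 2.25 in the SE line (SD, n = 3), with no overlap (0.68, SE 0.09). Zfp956 read 15.6 to 18.3 against at least 28.2 (0.75, SE 0.11). Zfp647 (0.74), Zfp791 (0.62), Zfp771 (0.57) and Zfp707 (0.56) also passed with no overlap. Only 10 of the 32 were KRAB members. Progenitor, astrocyte and glutamatergic markers moved with the line, as given above, and their part in these differences was not tested. On the TPM scale the median of all genes moved to -0.15 in this comparison and that of the members to -0.14, so the higher calls are relative to that shift.

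**Figure D5:**
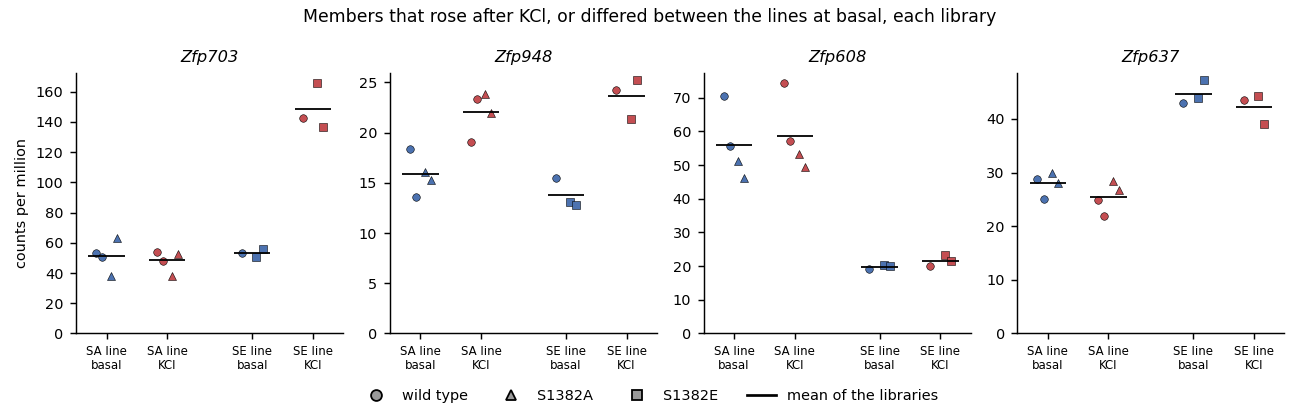
CPM (y axis, from 0) in each library for Zfp703 and Zfp948, which rose after KCl in the SE line, and for Zfp608 and Zfp637, which differed between the lines at basal; colours, symbols and bars are as in the plot of the falls. Zfp703 climbs to 136 to 166 CPM in the SE line and stays at 38.3 to 54.2 in the SA line.

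No member differed past the threshold between a BRG1 mutant and its wild type. At basal, SA against its wild type gave 0 calls of 136 and SE against its wild type 0, after KCl both gave 0, and the differences in KCl response gave 0 in each line. Over all genes the share called was 0% in each of the 6 comparisons. Unadjusted p fell under 0.05 for 9 members at basal and 17 after KCl in SA, 0 and 1 in SE, and 0 for either response. Over all genes tested the shares were 7.21% and 11.5% in SA, near the members' 6.62% and 12.5%. DESeq2 and limma also called 0. With 2 replicates against 2, or 2 against 1, small effects could be missed: the standard error of a response difference was 0.26 for Zfp799 in SA and 0.32 in SE on the log2 scale.

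In SA, members leaned lower than in wild type: 102 of 136 at basal (median -0.12) and 95 after KCl (median -0.17), with 0.01 in both over all genes. Wild-type replicate 1 had the most progenitor and cycling-cell markers, 2318 and 596 CPM at basal. The other SA-line replicates had at most 1423 and 363. A fit without that replicate was added after the data were seen and left 1 wild-type replicate in the SA line. Its medians for the members were -0.04 and -0.07, with 84 of 136 below 0 in each. Over all genes with a mean count of at least 50 they were 0.03 and 0.04. The part of these markers in the lower levels was not tested. In SE the medians were 0.00 and 0.00. Of single members, Zfp966 read 1.44 and 1.67 CPM in SA and 3.02 and 3.07 in wild type at basal (-0.97, SE 0.25, adjusted p 0.621; edgeR). Zfp951 had differences of -0.64 and -0.72 at basal and after KCl, and Zfp719 of -0.49 after KCl (adjusted p 0.323; edgeR). In SE, Zfp970 and Zfp638 had the lowest p at basal (-0.45 and -0.22), and Zfp966 and Zfp984 after KCl (-0.75 and -0.38). For the response difference the lowest p were those of Zfp931 (0.58) and Zfp871 (-0.64) in SA, and of Zfp970 (0.90) and Zfp711 (0.49) in SE, all with an adjusted p of 1 (edgeR).

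The lower levels after KCl were seen in every genotype. CPM was summed over the 150 members that passed the filter on low counts. In the SE line the sum was 2733.3 to 2801.8 at basal and 2516.5 to 2591.2 after KCl. In the SA line the ranges overlapped, at 2582.5 to 2925.7 and 2313 to 2661.7. The median log2 change of the 136 members was -0.29 in SA, -0.21 in the wild type of its line, -0.31 in SE and -0.34 in its wild type, which is 1 replicate. Between 103 and 112 of the 136 members lay below 0 in each. Taking KCl and basal libraries of the same number together, as a description, the medians ran from -0.29 to -0.20 over the 4 numbers of the SA line and from -0.37 to -0.24 over the 3 of the SE line.

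Members picked for what they are known to do were not called after KCl, apart from Zfp703 in the SE line. Zfp809, which silences murine leukaemia virus DNA, changed by -0.38 (SE 0.12) and -0.54 (SE 0.14) after KCl in the SA and SE lines, and Zfp932, a repressor of endogenous retroviruses, by -0.23 and -0.38. Zfp638, which recruits the HUSH silencing complex to unintegrated retroviral DNA, changed by -0.07 and -0.29. Zfp746, the Parkin substrate PARIS, changed by -0.37 and -0.15, and Zfp668, by -0.45 and -0.23. Zfp711, an X-linked gene of intellectual disability, changed by 0.22 and 0.04, Zfp704 by -0.19 and -0.29, Zfp827 by -0.11 and -0.08, Zfp644 by -0.01 and -0.24 and Zfp800 by -0.02 and -0.29. None of these 10 passed the KCl test in either line. Zfp819 and Zfp750 were under the minimum, with means of 4.29 and 1.93 counts.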

How the data were processed

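Reads had been quantified by the authors using kallisto 0.43.1; the submitters' processing notes name GRCm38 and mm10. They deposited estimated counts and TPM per gene and transcript. Estimated counts, 22625916 to 23096206 per library, were rounded and fitted with edgeR 4.0.16 in R 4.3.3 (filterByExpr, TMM, 8 group means, all 14 libraries, 6 residual degrees of freedom, glmQLFTest); the single wild-type libraries of the SE line were assumed to vary like other groups. The fit was tested on simulated data. DESeq2 1.42.0 and limma 3.58.1 on log2(TPM + 0.5) were among the alternatives. Fingers and the KRAB box were found by patterns in translated GENCODE M21 transcripts; the KRAB pattern was widened after it was seen which members it missed.

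The members and lists were chosen with earlier results of these data known. Genes named were called members with up to 12 largest falls and 8 largest rises per line, those called in both lines, up to 6 largest line differences each way without overlap, the 2 lowest p where a comparison called none, the 5 of highest TPM, and a list by function. Numbers were not taken to pair libraries, because the labels do not state that equal numbers mark 1 culture. Same-numbered basal and KCl libraries correlated in deviation at 0.58 (SA), 0.79 (its wild type) and -0.07 (SE). The correlation was thus positive in both genotypes of the SA line and not in SE.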

Additional observations from a re-analysis of the deposited data

How the results depend on the processing

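RLE scaling, no filter on low counts and DESeq2 left the number of members that fell within 1.5 times of 25 in the SA line and 28 in the SE line. Limma on log2(TPM + 0.5) gave 12 and 17, and a fit of each line alone 7 and 57. A minimum mean count of 200, met by 79 members in the same fit, gave 11 (13.9%) and 10 (12.7%), against 18.4% and 20.6% of the 136. A replicate block, which takes same-numbered basal and KCl libraries as pairs, gave 54 and 62. The labels do not state this pairing, and same-numbered libraries correlated in deviation in the SA line and not in SE. Leaving out 1 library gave 7 to 26 in the SA line and 11 to 26 in the SE line; the cause was not tested, though each such fit has fewer samples. Members that rose numbered 0 to 1 in the SA line without 1 library, and 1 with DESeq2, with the replicate block and without both libraries of wild-type replicate 1 (an alternative added after the data were seen). In the SE line they numbered 1 to 3 without 1 library and 4 with the block. The response difference between lines was called for 1 member with no filter, DESeq2, limma or the block, and for 0 to 1 without 1 library. Lines at basal differed in 19 to 34 members without 1 library. The median change was -0.15 (SA line) and -0.22 (SE line) at a minimum of 200, and without 1 library -0.31 to -0.21 in the SA line and -0.33 to -0.27 in the SE line. No alternative called a member between a mutant and its wild type.

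Of single members, Zfp712, Zfp786 and Zfp759 kept their calls in both lines under all 21 alternatives, whereas Zfp715 in the SA line kept it under 5 and Zfp661 in the SE line under 4. Zfp703 in the SA line, not called, ranged from -0.25 to 0.12 without 1 library, turning from -0.09 to 0.01 without SA_KCl replicate 1 and to 0.12 without SA_basal replicate 2. The standard error in the SE line was 0.37 for Zfp960, with a mean of 51.5 counts, and 0.11 for Zfp719, with 394. Members of like depth differed too. For the response difference between SE and its wild type, it was 0.78 for Zfp960 and 0.41 for Zfp947, with a mean of 50.5 counts. The part of depth in these values was not tested.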
